A study of Bos taurus with 11 samples.

Results

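The enzymes of glycolysis described here are GPI, ALDOA, TPI1, GAPDH, PGK1, PGAM1, ENO1 and PKM, which carry glucose phosphate to pyruvate, and LDHA and LDHB, whose subunits make lactate dehydrogenase. The 10 genes were taken by their bovine symbols, and a transcript belonged to a gene when its RefSeq accession carried that symbol in the RefSeq gene table. Of the 10, 9 were found as 1 transcript each among the 8576 transcripts in the table of GATA3 KO embryos, and the same 9 among the 12047 in the table of CDX2 KO embryos. LDHB was not analysed here. TPI1 fell below the mean of 10 normalized counts that was asked of a transcript before testing in the table of GATA3 KO, so that 8 of the 9 were tested there among 4271 transcripts, and all 9 among 5719 in the table of CDX2 KO.

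RNA was sequenced from 11 single bovine embryos at the early blastocyst stage on day 7 after fertilization in vitro. The 3 WT control embryos had been injected at the zygote stage with mRNA of BE3, a cytosine base editor, and with no guide RNA. The 4 GATA3 KO embryos had received BE3 mRNA with a mix of guide RNAs to GATA3, and the 4 CDX2 KO embryos BE3 mRNA with a mix of guide RNAs to CDX2, in order to create a premature stop codon. All embryos therefore carried the editor, and an edited embryo can hold cells with different alleles. The comparisons ask how the transcripts of glycolysis stood in embryos in which GATA3 or CDX2, transcription factors of the trophectoderm, had been targeted. KO embryos are called by the numbers of their columns in the tables, which are not the replicate numbers of the sample titles. The same WT control embryos serve both comparisons, so the comparisons are not independent, and GATA3 KO embryos were not tested against CDX2 KO embryos.

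Glycolysis splits glucose into pyruvate in the cytosol and yields ATP and NADH. In the first phase GPI and ALDOA rearrange and cleave the phosphorylated sugar, and TPI1 interconverts the resulting trioses. In the second phase GAPDH reduces NAD, PGK1 and PKM pass phosphate to ADP, and PGAM1 and ENO1 prepare the substrate of PKM. LDHA turns pyruvate into lactate and regenerates NAD. Mammalian embryos depend mainly on pyruvate during the first cleavages and take up much more glucose once they compact and form a blastocyst.

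The libraries held 150057 to 540775 counts in the table of GATA3 KO and 100731 to 662962 in that of CDX2 KO. The detection floor was set at 3 counts, or 4.53 to 29.8 CPM, for counting error only. GATA3 was at 79.9 ± 8.17 normalized counts (SD, n = 3) in WT control and 12.2 ± 1.58 (n = 4) in GATA3 KO embryos. CDX2 had 6 to 14 counts in WT control and 2 to 8 in CDX2 KO embryos, too near the floor to check the labels. The paper saw no clear change of either transcript in the respective KO embryos, unlike the GATA3 values here. It checked the editing by Sanger sequencing of cDNA. Transcripts of Y-linked genes, mostly of the multicopy gene TSPY with USP9Y, DDX3Y and EIF1AY, separated the groups in part. Their counts in the table of GATA3 KO were 50, 98 and 29 for WT control, 0, 0 and 2 for the KO embryos 3, 4 and 5, and 68 for embryo 6. In the table of CDX2 KO they had 46 to 149 counts in the WT control embryos, 0 in CDX2 KO embryos 2, 3 and 4, and 155 in embryo 5. Markers of trophectoderm were listed for 11 of 14 genes in the table of GATA3 KO, and their summed normalized counts of 3688 to 8606 in WT control and 3810 to 5544 in KO embryos overlapped. The summed markers of inner cell mass and epiblast (132 to 185 against 76.7 to 210.8) and of primitive endoderm (681 to 849 against 538 to 1239) overlapped as well. Markers of cumulus and granulosa cells were listed for 5 of 12 genes, of which 2 were at 0 in some embryo and only 1 had a mean of at least 10. They summed to 36.3 to 48.6 in WT control but 11.9 to 22.0 in GATA3 KO embryos. Sperm markers reached at most 9.03. In the table of CDX2 KO the summed markers were 5177 to 13309 against 2493 to 8468 for trophectoderm, 163.5 to 248 against 139.8 to 281 for inner cell mass and epiblast, 1051 to 1178 against 669 to 1454 for primitive endoderm, 61.5 to 82.9 against 58.5 to 147 for cumulus and granulosa cells, and at most 37.3 for sperm. The part of these markers in the results that follow was not tested. In a whole embryo, fewer cells of a type cannot be told apart from less RNA per cell.

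In GATA3 KO embryos none of the 8 enzymes tested passed the threshold in limma, which asked for an adjusted p up to 0.05 and for a fold change from 1.5 upward or from 0.6 downward. Of all transcripts tested, 2.01% passed (86 of 4271, 66 higher and 20 lower, or 48 higher and 57 lower after quantile normalization). PGK1 and LDHA came nearest to it, with fitted fold changes of 2.37 and 2.33, and were the 2 of 8 with an unadjusted p under 0.05, against 22.6% of all transcripts. DESeq2 on the recovered counts called 1 enzyme, PGK1, with 158 transcripts (3.7%) in all, and edgeR 0 enzymes with 126 transcripts (2.95%). Log2 fold changes were above 0 for 5 of the 8, with a median of 0.20, while 2443 of 4271 transcripts were above 0 with a median of 0.11. Since median ratios moved that overall median to 0.01, a difference of 0.11 on the log2 scale lies within the choice of scaling.

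**Figure D1:**
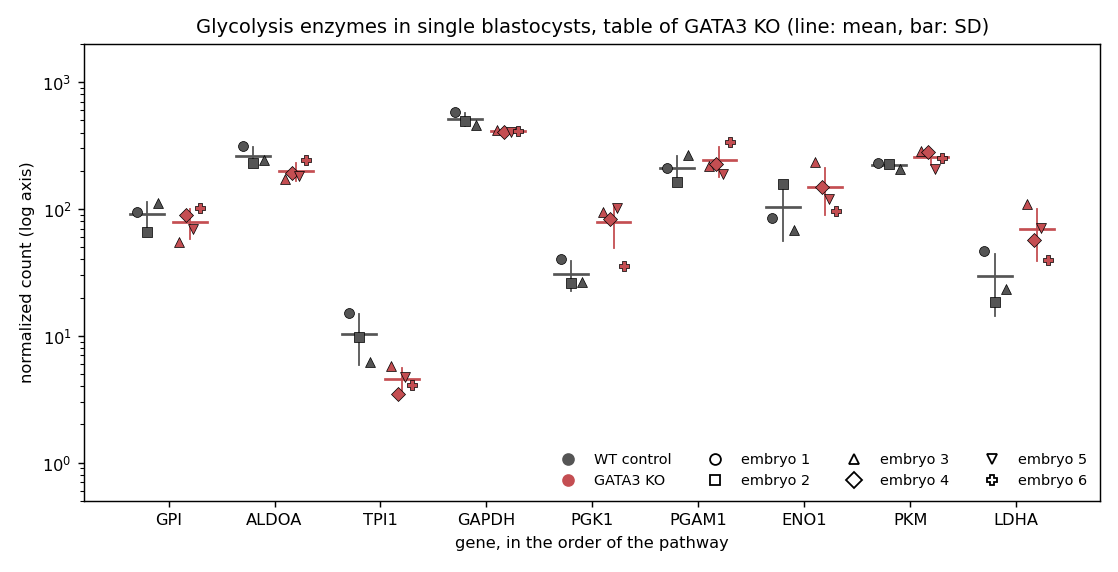
Normalized counts (log axis) of the 9 enzymes found, in the order of the pathway, in 3 WT control (grey) and 4 GATA3 KO (red) blastocysts, with a symbol for each embryo, the group mean as a horizontal line and the SD as a bar. PGK1 and LDHA lie higher in 3 of 4 KO embryos than in any WT control embryo, TPI1 and GAPDH lie lower in all 4, and the remaining enzymes overlap.

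In the first phase of the pathway no enzyme was higher in GATA3 KO embryos on average. GPI, which converts glucose 6-phosphate to fructose 6-phosphate, had normalized counts of 94.7, 65.9 and 112 in WT control embryos 1 to 3, as against 55.0, 90.0, 69.1 and 103 in GATA3 KO embryos 3 to 6. The groups overlapped, with a log2 fold change of -0.20 (SE 0.28, adjusted p = 0.695, limma). ALDOA, the aldolase that cleaves fructose bisphosphate, had 316, 229 and 244 in WT control and 172, 193, 183 and 245 in GATA3 KO embryos. Embryos 3, 4 and 5 were below every WT control embryo, whereas embryo 6 was between them, and the log2 fold change of -0.40 (SE 0.23) did not pass (adjusted p = 0.309, limma).

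TPI1, the triose phosphate isomerase, was the least counted of the 9 enzymes, with 15.0, 9.73 and 6.22 normalized counts in WT control and 5.79, 3.45, 4.76 and 4.11 in GATA3 KO embryos. The KO embryos were all below the WT control embryos, but WT control embryo 3 and GATA3 KO embryos 3 and 5 had only 4 counts each, and no library had more than 19. The mean was 10.3 ± 4.42 (SD, n = 3) in WT control and 4.53 ± 0.999 (n = 4) in GATA3 KO, a difference of -0.98 on the log2 scale. An exact permutation test over the 35 splits of 7 embryos gave p = 0.0286, the smallest that this design allows, two-sided and not adjusted, and 7.05% of all transcripts tested were likewise lower without overlap. The same exact test gave 0.0286 for GAPDH, 0.0857 for PGK1 and for LDHA, 0.114 for ALDOA, 0.2 for PKM, 0.286 for ENO1, and 0.514 for PGAM1 and for GPI. Without the filter on the mean TPI1 was tested with the other transcripts and was not called.

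GAPDH, which opens the energy-yielding phase and often serves as a reference transcript, was also lower in every GATA3 KO embryo. Its normalized counts were 580, 495 and 462 in WT control and 418, 402, 401 and 412 in GATA3 KO embryos. The means of 512 ± 61.0 (n = 3) and 409 ± 8.10 (n = 4) differed by -0.32 on the log2 scale (SE 0.21), which did not pass in limma (adjusted p = 0.381), while the exact permutation p was the smallest possible, 0.0286. Its log2 fold change lay between -0.44 and -0.22 under every other setting tried, rescaling included. Of the 8 enzymes tested GAPDH alone had groups without overlap, against 18.9% of all transcripts tested, 7.05% in the lower direction. The 4 KO embryos had close values, with a coefficient of variation of 1.98%. No other of the 395 transcripts with a mean of at least 100 varied less among these embryos, where the median was 18.9%. The GAPDH counts behind the values were 289, 934, 337 and 502, at which counting error alone is larger than 1.98%. The closeness of these 4 values is therefore no measure of how uniform GAPDH was. In the WT control embryos the coefficient of variation of GAPDH was 11.9%.

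PGK1, the X-linked phosphoglycerate kinase that makes the first ATP of the pathway, had 40.2, 25.9 and 26.4 normalized counts in WT control and 94.1, 84.0, 101 and 35.3 in GATA3 KO embryos. Embryos 3, 4 and 5 were above every WT control embryo and embryo 6 lay among them, so the groups overlapped. The means were 30.9 ± 8.12 (n = 3) and 78.7 ± 29.8 (n = 4), and the log2 fold change of 1.24 (SE 0.34, unadjusted 95% interval 0.54 to 1.95) narrowly missed the threshold (adjusted p = 0.0547, limma). It passed with a pseudocount of 5 (adjusted p = 0.0451), without the filter on the mean (0.0432) and in DESeq2 (0.0301), and also when WT control embryo 1 (0.0269) or GATA3 KO embryo 6 (0.00835) was left out. Under these settings 3.39%, 2.01%, 3.7%, 6.86% and 4.28% of all transcripts tested passed. Embryo 6, at the level of WT control, was also the only GATA3 KO embryo with more than 2 counts of Y-linked genes. With the presence of Y-linked transcripts as a covariate, a fit in which embryo 6 alone carries the comparison, the log2 fold change of PGK1 was 0.22 (adjusted p = 0.867, limma).

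The next enzymes overlapped between the groups. PGAM1, the phosphoglycerate mutase, had 210, 162 and 264 normalized counts in WT control and 220, 228, 188 and 335 in GATA3 KO embryos (log2 fold change 0.19, SE 0.25, adjusted p = 0.688, limma). ENO1, the enolase, had 84.4, 158 and 68.4 in WT control and 233, 148, 119 and 96.1 in GATA3 KO embryos, so that only embryo 3 exceeded all WT control embryos (log2 fold change 0.53, SE 0.32, adjusted p = 0.332, limma). ENO1 varied widely in both groups, with coefficients of variation of 46.0% and 40.2%. PKM, the pyruvate kinase of the last step, had 229, 226 and 208 in WT control and 287, 283, 207 and 252 in GATA3 KO embryos. Here embryos 3, 4 and 6 were above and embryo 5 was just below all WT control embryos, and the log2 fold change was 0.21 (SE 0.22, adjusted p = 0.604, limma).

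LDHA, the subunit of lactate dehydrogenase that predominates where lactate is formed, resembled PGK1 across the embryos. Its normalized counts were 46.6, 18.4 and 23.3 in WT control and 110, 56.9, 70.3 and 39.4 in GATA3 KO embryos. Embryos 3, 4 and 5 exceeded all WT control embryos, and embryo 6 was below WT control embryo 1. The means were 29.4 ± 15.0 (n = 3) and 69.1 ± 30.02 (n = 4), with a log2 fold change of 1.22 (SE 0.35, unadjusted 95% interval 0.47 to 1.96) that did not pass (adjusted p = 0.0636, limma). It passed when WT control embryo 1 (adjusted p = 0.0165) or GATA3 KO embryo 6 (0.0347) was left out, and with the Y-linked covariate it was 0.52 (adjusted p = 0.715, limma). The counts of LDHA were few, from 15 to 132 per library. In embryos 3, 4 and 5 knockout coincides with the near absence of Y-linked counts, so the 2 cannot be told apart for LDHA or PGK1.

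**Figure D2:**
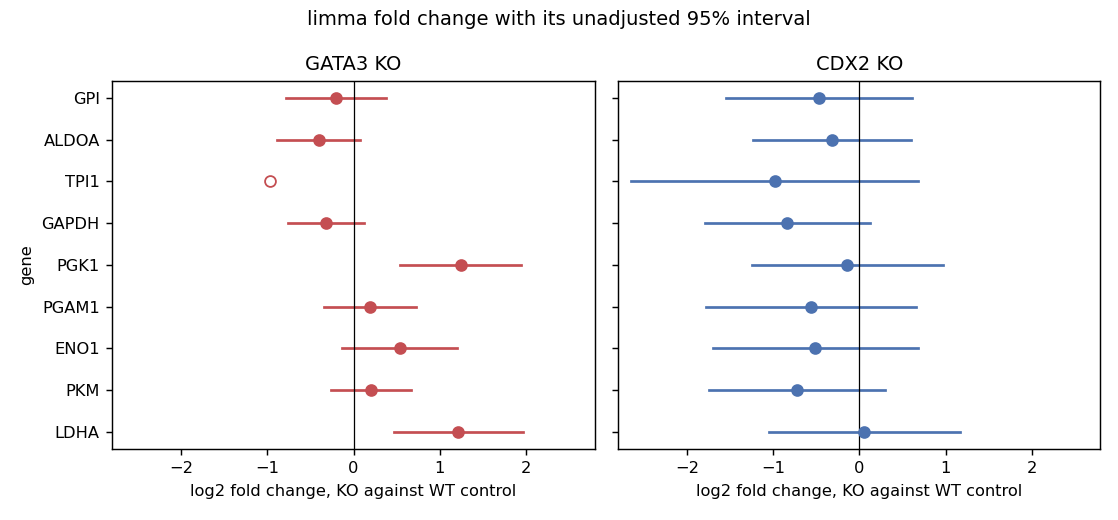
Log2 fold change of each enzyme against WT control (horizontal axis), GATA3 KO on the left and CDX2 KO on the right, with points for the limma estimate and lines for its unadjusted 95% interval. The intervals of PGK1 and LDHA alone stay above 0 in GATA3 KO, no enzyme passed the threshold in either comparison, and the open circle is TPI1, which was not tested in the table of GATA3 KO and is shown by its difference in mean log2.

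Set against GAPDH in the same library, which cancels the size factor, PGK1, LDHA and PKM had groups that did not overlap. PGK1 had 5.24 to 6.94 counts per 100 counts of GAPDH in WT control and 8.57 to 25.2 in GATA3 KO embryos. LDHA had 3.71 to 8.03 per 100 in WT control and 9.56 to 26.3 in GATA3 KO embryos. PKM had 39.5 to 45.6 per 100 in WT control and 51.6 to 70.3 in GATA3 KO embryos. These 3 of the 7 other enzymes tested did not overlap between the groups, but GAPDH itself was lower in the KO embryos, which raises every ratio. Of all other transcripts tested, 25.4% were higher without overlap when divided by GAPDH and 2.08% lower. ALDOA, at 46.3 to 54.4 per 100 in WT control and 41.2 to 59.4 in GATA3 KO embryos, overlapped. The 9 enzymes together took 0.606 to 0.640% of all counts in WT control and 0.549 to 0.662% in GATA3 KO embryos, so that their summed share overlapped too.

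In CDX2 KO embryos none of the 9 enzymes passed the threshold, as did none of the 5719 transcripts of that table (0.0%) in limma. DESeq2 called 9 transcripts and edgeR 1, none of them a glycolysis enzyme. None of the 9 had an unadjusted p under 0.05, against 3.27% (187) of all transcripts. The log2 fold changes of 8 of the 9 were below 0, as were those of 3460 of 5719 transcripts, with a median of -0.51 against -0.15 over all transcripts. Abundant transcripts were lower as a whole, and the 6 enzymes with a mean of at least 100 had a median of -0.54 against -0.44 over the 473 transcripts at that level. After rescaling to CPM, which moved the median of all transcripts to 0.01, PGK1 was above 0 instead, and ALDOA was so after quantile normalization.

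**Figure D3:**
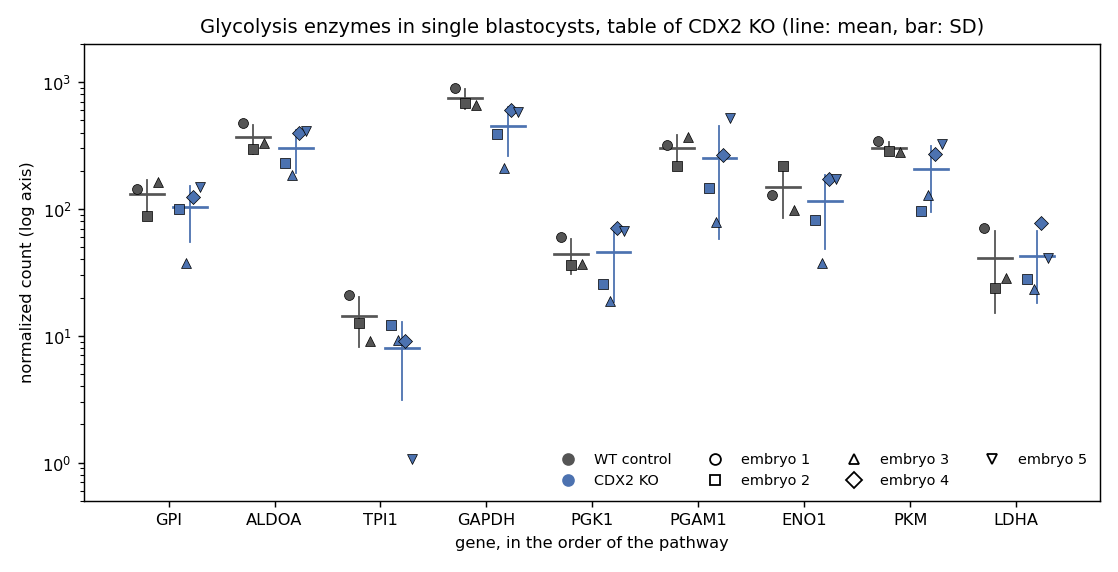
Normalized counts (log axis) of the same 9 enzymes in 3 WT control (grey) and 4 CDX2 KO (blue) blastocysts, with a symbol for each embryo, the group mean as a horizontal line and the SD as a bar. CDX2 KO embryo 3 is the lowest of the 7 for 7 of 9 enzymes, and embryos 4 and 5 lie among or above the WT control embryos for most of them.

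The low values belonged to certain embryos. CDX2 KO embryo 3 was the lowest of the 7 embryos for 7 of 9 enzymes, and embryo 2 was below the WT control mean for all 9. The median difference of the enzymes from the WT control mean was -0.72 on the log2 scale in embryo 2, -1.23 in embryo 3, -0.02 in embryo 4 and 0.19 in embryo 5, where the median over all transcripts was -0.15, -0.39, 0.05 and 0.10. Abundant transcripts were lower as a whole in this comparison, and no median over transcripts of like abundance was taken per embryo. The enzymes took 0.413% of all counts in embryo 2 and 0.311% in embryo 3, but 0.569% in embryo 4 and 0.640% in embryo 5, against 0.609 to 0.646% in WT control embryos. Embryo 3 was also the library with the fewest counts, 100731, and had 313 counts over the 9 enzymes; the part of its depth in these values was not tested. Without embryos 2 and 3, an alternative chosen after the data were seen, PGK1 (0.67), ENO1 (0.30), PGAM1 (0.33), ALDOA (0.16) and GPI (0.11) had log2 fold changes above 0, as did LDHA (0.61), PKM was at -0.02 and GAPDH at -0.31, and no enzyme was called. TPI1 moved the other way, to -1.66.

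GAPDH had 899, 679 and 661 normalized counts in WT control and 389, 212, 601 and 587 in CDX2 KO embryos. Here too all KO embryos were below the WT control embryos, as for 3.36% of all transcripts in that direction, and embryos 4 and 5 came close to them. The means of 747 ± 132 (n = 3) and 447 ± 184 (n = 4) gave a log2 fold change of -0.84 (SE 0.44, unadjusted 95% interval -1.80 to 0.12, adjusted p = 0.900, limma), and the exact permutation p was 0.114. GAPDH was the only enzyme of the 9 without overlap in this table, where 5.88% of all transcripts had none, 2.52% in the higher direction. Because the WT control embryos are the same, its lower level in both tables is not a repeated observation of WT control.

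In the first phase GPI had 144, 87.7 and 163 normalized counts in WT control and 99.3, 37.3, 125 and 150 in CDX2 KO embryos (log2 fold change -0.47, SE 0.50, adjusted p = 0.901, limma). ALDOA had 473, 295 and 331 in WT control and 230, 184, 394 and 409 in CDX2 KO embryos (-0.32, SE 0.42, adjusted p = 0.923). In both, embryos 4 and 5 lay within the range of WT control. TPI1 had 20.9, 12.6 and 9.17 in WT control and 12.3, 9.32, 9.12 and 1.07 in CDX2 KO embryos. The last value rests on 2 counts in the deepest library, embryo 5, below the floor, and the log2 fold change of -0.99 (SE 0.77) did not pass (adjusted p = 0.900, limma) and was -0.38 without that embryo, but -2.805 with the Y-linked covariate, where embryo 5 alone carries the comparison. TPI1 was thus lowest in embryo 5, the embryo in which PGAM1 was highest.

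In the second phase PGK1 had 60.3, 36.3 and 36.7 normalized counts in WT control and 25.7, 18.6, 70.5 and 67.7 in CDX2 KO embryos. Embryos 2 and 3 were below and embryos 4 and 5 above all WT control embryos, with a log2 fold change of -0.14 (SE 0.51, adjusted p = 0.967, limma). Embryos 2, 3 and 4 had no Y-linked counts, and the part of this in the values of PGK1 was not tested. PGAM1 spread widest, with 322, 218 and 370 in WT control and 146, 79.2, 265 and 522 in CDX2 KO embryos, a coefficient of variation of 77.1% in the KO embryos where the median over 473 transcripts was 47.3% (log2 fold change -0.56, SE 0.57, adjusted p = 0.900, limma). ENO1 had 129, 219 and 97.4 in WT control and 82.1, 37.3, 173 and 173 in CDX2 KO embryos (-0.51, SE 0.55, adjusted p = 0.904). PKM had 341, 288 and 280 in WT control and 95.6, 128, 271 and 326 in CDX2 KO embryos, lowest in embryo 2 (-0.73, SE 0.47, adjusted p = 0.900). In all of these, embryos 2 and 3 were the lowest of the KO embryos, and embryo 5 stood within or above the range of WT control. LDHA had 71.0, 23.7 and 28.7 in WT control and 28.2, 23.3, 77.1 and 40.8 in CDX2 KO embryos, and its log2 fold change of 0.06 had an unadjusted 95% interval from -1.05 to 1.16 (adjusted p = 0.990, limma). The interval of PGK1, from -1.25 to 0.97, was as wide, so that neither enzyme was shown to stay at the level of WT control.

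**Figure D4:**
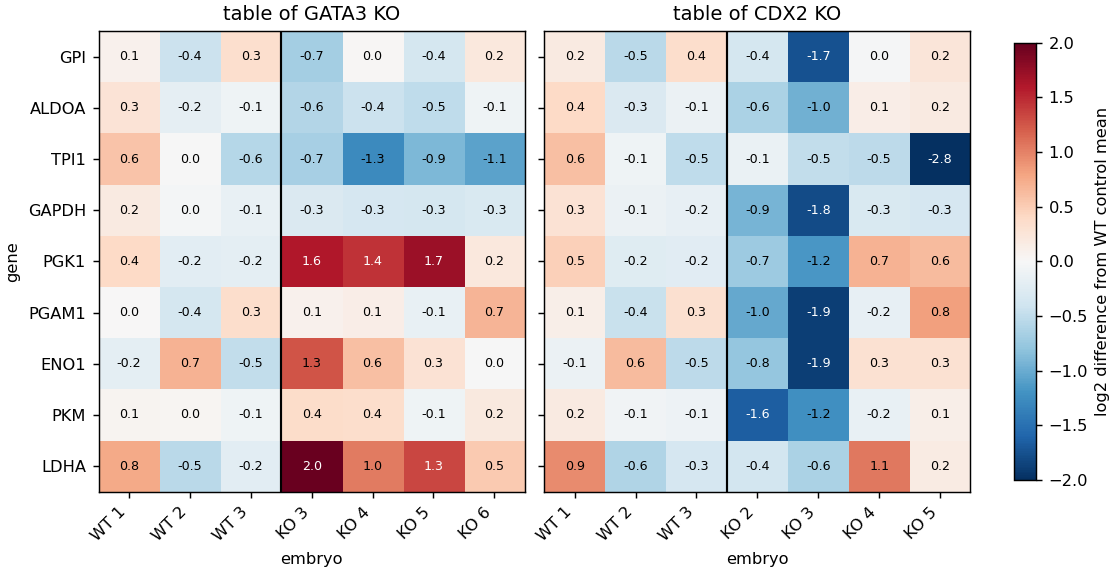
Difference of each enzyme (rows, in pathway order) from the WT control mean of its table, as log2(normalized count + 1), in each embryo (columns), with the WT control embryos left of the black line and colour capped at 2 in either direction. In GATA3 KO embryos 3 to 5 PGK1 and LDHA stand out as high, embryo 6 does not share this, and CDX2 KO embryos 2 and 3 are below the WT control mean for all 9 enzymes.

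The WT control embryos showed how the tables differ. Counts of the same embryo in the table of CDX2 KO were 1.67 to 2.0 times those in the table of GATA3 KO for the 9 enzymes, and 1.78 to 1.85 times over all transcripts in both tables, so no level was compared between tables. WT control embryo 1 had the highest normalized count of the 7 embryos for 3 of 9 enzymes in the table of GATA3 KO and for 4 of 9 in that of CDX2 KO, and was above the WT control mean for 8 of 9 in each. Several of these enzymes have processed pseudogenes in mammals, and reads shared with such copies could have been counted or lost, which makes their absolute levels uncertain.

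Around the 9 enzymes, 85 genes in 6 lists cover other glycolytic enzymes and isozymes, transport of glucose, lactate and pyruvate, regulators of glycolysis, entry of pyruvate into mitochondria, the pentose phosphate pathway, and gluconeogenesis with the shuttles of NADH. In GATA3 KO embryos 37 of them were tested, of which 1 rose and 0 fell, near the share of 2.01% called among all transcripts, and 4 higher and 1 lower had groups without overlap, where 11.9% and 7.05% of all transcripts did. Among the 4 higher was PDK3, which met the filter on the mean only through the KO group. The gene that rose was PDHB, the beta subunit of the first enzyme of the pyruvate dehydrogenase complex, which commits pyruvate to the mitochondrial route. PDHB had 67.9, 47.6 and 49.7 normalized counts in WT control and 111, 150, 114 and 96.9 in GATA3 KO embryos, all KO embryos being above WT control. Its means of 55.1 ± 11.1 (n = 3) and 118 ± 22.5 (n = 4) gave a log2 fold change of 1.09 (SE 0.25, adjusted p = 0.0337, limma). The call was lost in 5 of the 7 fits that left out 1 embryo, namely those leaving out WT control embryo 2 or 3 or GATA3 KO embryo 3, 4 or 5, where the adjusted p reached 0.140, and the log2 fold change stayed between 0.97 and 1.25. It was also lost with quantile normalization (log2 fold change 0.91, adjusted p = 0.0514, limma) and with the Y-linked covariate (0.82, adjusted p = 0.426).

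PDK3, SLC16A1 and RPIA were also higher in all GATA3 KO embryos without passing the threshold. PDK3, an X-linked kinase that inactivates pyruvate dehydrogenase, had 3.95, 5.40 and 1.55 in WT control and 24.6, 13.8, 27.4 and 8.21 in GATA3 KO embryos, with embryo 6 the lowest of the KO embryos. It met the mean of 10 only through the KO group, and its WT control values rest on 5, 5 and 1 counts, so no fold change is given for it. SLC16A1, a monocarboxylate transporter for lactate and pyruvate, had 103, 99.4 and 46.6 in WT control and 126, 133, 108 and 148 in GATA3 KO embryos (log2 fold change 0.70, SE 0.28, adjusted p = 0.157, limma). In SLC16A1 the lowest WT control embryo was well apart from the other two. RPIA, an isomerase of the pentose phosphate pathway, had 46.6, 25.9 and 35.7 in WT control and 62.2, 72.4, 65.5 and 64.9 in GATA3 KO embryos (0.89, SE 0.27, adjusted p = 0.0684). PFKL, the liver type of phosphofructokinase, was the gene that lay lower in all KO embryos, with 25.3, 21.6 and 26.4 in WT control and 11.6, 10.3, 15.5 and 13.1 in GATA3 KO embryos (log2 fold change -0.91, SE 0.32, adjusted p = 0.110, limma). PDHA1, the X-linked alpha subunit beside PDHB, had 63.9, 36.7 and 46.6 in WT control and 94.1, 100.4, 101 and 44.3 in GATA3 KO embryos, again with embryo 6 among the WT control embryos (0.74, SE 0.31, adjusted p = 0.174). These 5 genes were chosen after their values were seen.

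**Figure D5:**
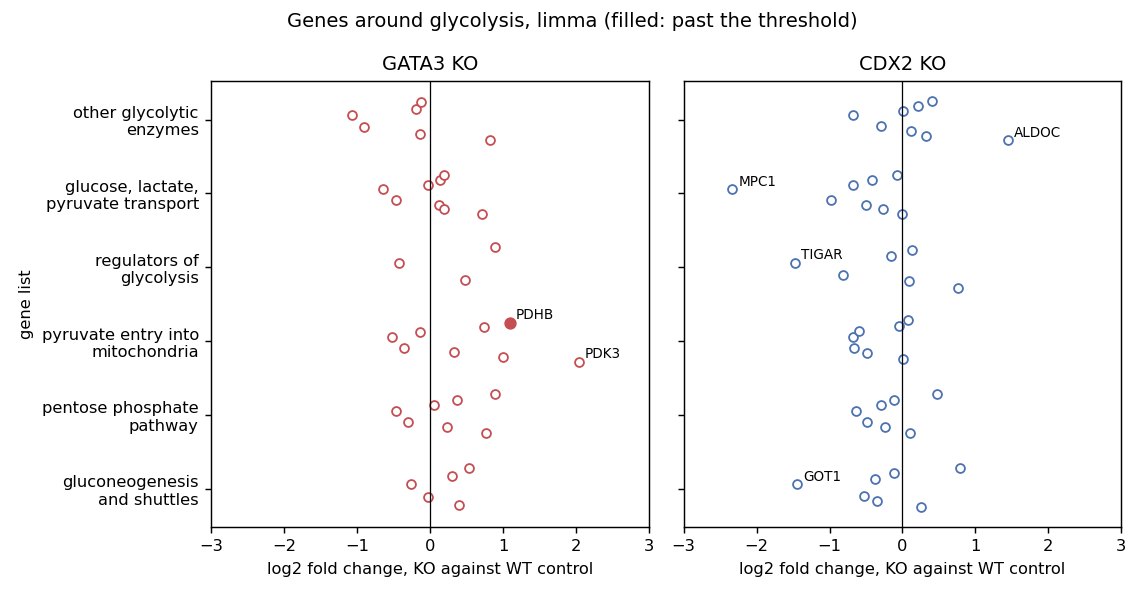
Log2 fold change against WT control (horizontal axis) of each tested gene in the 6 lists around glycolysis, with GATA3 KO on the left, CDX2 KO on the right and 1 circle per gene. The filled circle, PDHB in GATA3 KO, is the only gene past the threshold of limma, and the other labelled genes are those with the largest changes, none of which passed. Of these, PDK3 in GATA3 KO and ALDOC in CDX2 KO met the filter on the mean only through the KO group. TIGAR in CDX2 KO met it only through WT control.

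In the lists with no call, the most abundant tested genes overlapped between WT control and GATA3 KO. SLC2A3, a glucose transporter of high affinity, had 776, 432 and 538 in WT control and 560, 412, 304 and 393 in GATA3 KO embryos (log2 fold change -0.47, SE 0.26, adjusted p = 0.286, limma). HK1, a hexokinase, had 32.4, 23.8 and 21.8 in WT control and 28.9, 22.8, 25.0 and 17.2 in GATA3 KO embryos (-0.14, SE 0.30, adjusted p = 0.812). For the transporter embryos 4, 5 and 6 were below every WT control embryo and embryo 3 lay among them, whereas for the hexokinase only embryo 6 was below. TKT, the transketolase, had a mean of 191 ± 40.8 (n = 3) in WT control and 153 ± 25.5 (n = 4) in GATA3 KO embryos (-0.30, SE 0.24, adjusted p = 0.473, limma). MDH2, the mitochondrial malate dehydrogenase, had a mean of 139 ± 51.5 (n = 3) and 198 ± 50.4 (n = 4; 0.53, SE 0.28, adjusted p = 0.267, limma). EGLN1, a prolyl hydroxylase that marks the hypoxia factor HIF1A for degradation, had a mean of 28.2 ± 12.0 (n = 3) and 20.3 ± 5.96 (n = 4; -0.42, SE 0.34, adjusted p = 0.473, limma).

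In CDX2 KO embryos 43 genes of the lists were tested and 0 passed in limma, edgeR or DESeq2, with 1 at an unadjusted p under 0.05, where 3.27% of all transcripts were. That gene was ALDOC, which met the filter on the mean only through the KO group. The 43 genes had a median log2 fold change of -0.24, against -0.15 over all transcripts. Of the 43, 28 were below 0, as were 3460 of all 5719 transcripts. PC, the pyruvate carboxylase, was the 1 gene of 43 without overlap, against 5.88% of all transcripts, 3.36% in its direction, with 61.5, 41.9 and 49.3 normalized counts in WT control and 31.9, 39.6, 36.5 and 34.9 in CDX2 KO embryos (log2 fold change -0.49, SE 0.37, adjusted p = 0.900, limma). SLC2A3 was low in embryos 2 and 3 and high in embryos 4 and 5, with 1189, 604 and 753 in WT control, 520 and 375 in CDX2 KO embryos 2 and 3, and 1525 and 1470.05 in embryos 4 and 5 (log2 fold change -0.00, SE 0.54, adjusted p = 0.998, limma). PDHB likewise had 103, 67.1 and 67.6 in WT control, 34.3 and 30.3 in embryos 2 and 3, and 169 and 209 in embryos 4 and 5 (0.01, SE 0.65, adjusted p = 0.997). HK1 had 45.7, 32.4 and 26.4 in WT control and 39.2, 32.6, 68.0 and 37.6 in CDX2 KO embryos, so that embryos 2 and 3 were not low in it (0.32, SE 0.41, adjusted p = 0.922, limma). TKT (-0.48, SE 0.53, adjusted p = 0.905, limma), MDH2 (-0.35, SE 0.51, adjusted p = 0.928) and EGLN1 (-0.82, SE 0.77, adjusted p = 0.900) did not pass either.

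The transcripts whose pattern over the 7 embryos was most like the median pattern of the enzymes were taken from those outside all lists with a mean of at least 100, by the root mean square difference of their centred log2 values. In the table of GATA3 KO they were UBB, a polyubiquitin gene (0.131), SNRPB, a core protein of the spliceosome (0.133), and PSMB4, a proteasome subunit (0.141), among 377 transcripts with a median of 0.352. In the table of CDX2 KO they were BZW1 (0.0651), LASP1, an actin-binding protein (0.0932), and HSPE1, a mitochondrial chaperonin (0.115), among 450 with a median of 0.348. BZW1, which was nearest, had 277, 173 and 206 normalized counts in WT control and 134, 93.2, 245 and 271 in CDX2 KO embryos, low in the same embryos 2 and 3 as the enzymes. The points share their libraries and size factors, and the likeness is a description over 7 embryos.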

How the data were processed

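Single-embryo Smart-seq2 libraries were trimmed by the authors with Trimmomatic 0.39, mapped to ARS-UCD1.2 with Hisat2 2.1.0 and counted with featureCounts 1.6.3, without molecular identifiers. The deposited signal of each embryo is a count divided by the size factor of DESeq2 within its table, in 2 tables that share the 3 WT control embryos. The log2 fold changes, the test statistic (a score) and the p-values that the authors deposited in the same tables were not used. The values were whole multiples of 1 step per library in 100% of cases (tolerance 0.01 of a step), from which counts were recovered. The numbers of the control columns gave their samples, KO columns could be tied to a group alone, and 0 columns of sample values were left unused. Symbols for 98.6% of transcripts, and chromosomes, came from the RefSeq annotation of ARS-UCD2.0.

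Each table was fitted with limma 3.58.1 (R 4.3.3, trended prior) on log2(normalized count + 1). Transcripts had to reach a mean of 10, and p-values were Benjamini-Hochberg adjusted over all tested. The unit was found to be normalized counts, for which this test had been set. With this pseudocount, fold changes of low transcripts are understated. Alternatives were pseudocounts of 0.1 and 5, a mean of 100 or no filter, scaling by quantiles, by median ratios or to CPM, fold changes of 2 or 0.5, edgeR 4.0.16 and DESeq2 1.42.0 on recovered counts, a Y-linked covariate, and leaving out each embryo. Single genes were also compared by a two-sided exact permutation test over 35 splits (Python 3.11.15, numpy 2.4.6, scipy 1.17.1). The code was tested on simulated data.

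The enzymes, lists and tests were chosen with earlier results of these data known. Named were the enzymes, genes of the lists that passed or else the most abundant of a list, the 3 transcripts nearest in pattern, the Y-linked genes and both targets; any other gene was picked with its values in view. The labels give each library as an embryo but no round of fertilization, so p-values measure the spread between these embryos. Transcript length was not used, so levels were not compared between genes.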

Additional observations from a re-analysis of the deposited data

How the results depend on the processing

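No paired analysis was possible because the numbers of the KO columns do not match those in the KO sample titles, so that each KO column was tied to its group alone, and these numbers, used as embryo numbers in the text, pair no embryos.

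In the comparison of GATA3 KO, the 0 enzymes called became 1 (PGK1) with a pseudocount of 5, with no filter and with DESeq2, and ranged from 0 to 2 when 1 embryo was left out, 2 being PGK1 and LDHA when WT control embryo 1 or GATA3 KO embryo 6 was left out. The 1 gene of the lists called became 2 (PDHB and PDK3, the latter above the filter only through its KO values) with a pseudocount of 5, with no filter and with edgeR, became 0 with a mean of at least 100, quantile normalization or the Y-linked covariate, and ranged from 0 to 4 when 1 embryo was left out. With a mean of at least 100 only 7 genes of the lists were tested, and PDHB, with a mean of 91.1, was not among them. Over all transcripts, the 86 calls became 145 with a pseudocount of 5, 172 with no filter, 158 with DESeq2 and 183 without GATA3 KO embryo 6, fell to 1 without WT control embryo 2 or GATA3 KO embryo 3, and rose to 247 higher and 46 lower without WT control embryo 1. With the Y-linked covariate, under which 1 transcript was called in all, ENO1 was at -0.014 and GPI at 0.21 on the log2 scale, and these were the only reversals among the enzymes in this comparison. The cause of these shifts was not tested.

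In the comparison of CDX2 KO no enzyme and no gene of the lists was called under any setting. The log2 fold change of PGK1 turned to 0.024 with CPM, 0.14 with edgeR and 0.15 with DESeq2, and that of ALDOA to 0.091 with quantile normalization. With the Y-linked covariate, where embryo 5 alone carries the comparison, PGK1 was at 0.64, PKM at 0.11, ENO1 at 0.30, ALDOA at 0.19, PGAM1 at 0.82 and GPI at 0.23. Without embryos 2 and 3, chosen after the data were seen, PGK1 was at 0.67, ENO1 at 0.30, ALDOA at 0.16, PGAM1 at 0.33 and GPI at 0.11. Leaving out 1 embryo gave PGK1 from -0.42 to 0.20, LDHA from -0.28 to 0.53 and PDHB from -0.46 to 0.46. PDHB was at 0.54 with edgeR and with DESeq2, at 1.27 without embryos 2 and 3, and at 1.42 with the Y-linked covariate. GAPDH and TPI1 stayed below 0 under every setting in which they were tested. The number of embryos, and counts as low as 2 for TPI1, limit these comparisons.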

Other observations

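Among the lists in CDX2 KO embryos, the 4 genes of largest change, singled out once their values were known, are given here. MPC1, a subunit of the mitochondrial pyruvate carrier, had 145, 111 and 83.7 normalized counts in WT control, 19.6 in CDX2 KO embryo 2 and 0 in embryo 3, but 109 and 105 in embryos 4 and 5 (log2 fold change -2.33, SE 1.23, adjusted p = 0.900, limma), so that its change rests on embryos 2 and 3. ALDOC, an aldolase best known from brain, had 7.61, 15.0 and 6.88 in WT control and 14.7, 46.6, 30.7 and 24.7 in CDX2 KO embryos, the WT control mean of 9.83 being below the filter that it met through the KO group. TIGAR, which lowers fructose bisphosphate levels, had 27.3, 8.69 and 13.8 in WT control and 0, 6.99, 15.8 and 6.98 in CDX2 KO embryos, with 0 and 3 counts in embryos 2 and 3, and met the filter only through WT control. GOT1, the cytosolic aspartate aminotransferase of the malate-aspartate shuttle, had 17.8, 17.4 and 42.4 in WT control, 9.80 and 0 in CDX2 KO embryos 2 and 3, and 31.5 and 18.3 in embryos 4 and 5, so that groups overlapped. In GATA3 KO embryos MPC1 had 57.5 to 95.5 normalized counts in WT control and 77.1 to 86.8 in KO embryos, without a difference beyond the spread (0.11, SE 0.25, adjusted p = 0.814, limma).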
